A study of Rattus norvegicus with 50 samples.

Results

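Nuclear factor erythroid 2-related factor 2 (Nrf2, encoded by Nfe2l2) is a transcription factor that turns on genes against oxidative and electrophilic stress. In resting cells its protein is held and marked for breakdown by Keap1, and under stress it gathers in the nucleus, pairs with small Maf proteins and binds a short DNA sequence called the antioxidant response element. Its target genes supply glutathione, keep thioredoxin and peroxiredoxin reduced, break down haem and detoxify quinones, and in the lung they are best known for their part in the response of epithelium and macrophages to inhaled particles and oxidants. Here 9 such genes were followed, namely Slc7a11, Gclc, Gclm, Srxn1, Txnrd1, Hmox1, Nqo1, Osgin1 and Nfe2l2 itself. They were chosen by gene name, out of 25885 genes with a probe on the array, and had 11 probes between them.

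The samples were 50 lungs (accessory lobe) of male F344 rats, an inbred strain, in 10 groups of 5 rats with 1 array per rat. The labels give an age of 12 weeks for every rat. Exposed rats inhaled TiO2 P25 nanoparticles (10 mg/m3) by nose-only aerosol, in daily sessions of 6 h on 5 days of each week for 4 weeks, while control rats inhaled filtered air. The groups are named by the number of days between the last exposure and sampling, which was 0 (D0), 3 (D3), 28 (D28), 90 (D90) or 180 (D180). The labelled age is the same for all days, so it cannot be the age at sampling throughout. Between days, time after exposure cannot be told apart from age. All values below are log2 fluorescence after quantile normalization unless a fold is named, and levels of different probes cannot be set against each other. A gene was called over-expressed or under-expressed at a change of at least 1.5-fold (0.585 on the log2 scale) and an adjusted p under 0.05 from limma, with Benjamini-Hochberg adjustment over 25235 genes. All errors after ± are SD with n = 5, except where SE is written.

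The share of spots well above background ran from 68.7% to 84.5% over the arrays, and the median signal from 198 to 473 fluorescence units. The arrays lay on 7 slides, 4 of which held D0, D3 and D28 and the other 3 D90 and D180, except for 1 exposed rat of D3 (replicate 1). One exposed D180 sample (replicate 2) carries in its label an animal number next to those of the control rats, and its group was taken from its title. Levels of D0 to D28 against those of D90 and D180 cannot be told apart from slide, whereas control and exposed rats of a day shared slides. All 17 markers of alveolar type 1, alveolar type 2 and club cells tested were well above background on every array, which is what lung tissue should show. Of the 9 members, 8 passed the filter on dim probes. The probe of Gclm, the modifier subunit of glutamate-cysteine ligase, was well above background on 0 of 50 arrays by most of its spots, so no level or change is given for this gene. Only 15% of the bases of that probe are G or C, against 35% to 55% in the probes used for the other members. On rn4, the build of the array files, the probes used lie at chr2:139241468-139241527 for Slc7a11, chr3:142462543-142462602 for Srxn1, chr7:23055528-23055561 for Txnrd1 (34 of its 60 bases), chr8:82762574-82762633 for Gclc and chr3:58367137-58367196 for Nfe2l2. Those of Nqo1, Hmox1 and Osgin1 all lie on chromosome 19, at chr19:37251727-37251786, chr19:13969336-13969395 and chr19:49689658-49689717.

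The RefSeq promoter windows (assembly GRCr8, from 250 bases before to 50 after the start) were searched for the core of the antioxidant response element, written TGACNNNGC, on both strands. It was found in 3 of the 9 windows that 8 members have, namely those of Gclm, Nfe2l2 and 1 of the 2 windows of Txnrd1, and in 4038 of all 33469 windows (12.1%). With the looser TGANNNNGC, which also takes in every match of the first, 7 of the 9 members' windows had a match, against 40.5% of all windows. Hmox1 had no entry. Positions below count from 0 at the start site. The 250 bases before the start are shown for the pair of members that rose most after exposure, Slc7a11 and Srxn1, and for Gclm, which holds the stricter core, with matches to the looser motif in capitals.
Slc7a11, chr2:136668265-136668514, minus strand: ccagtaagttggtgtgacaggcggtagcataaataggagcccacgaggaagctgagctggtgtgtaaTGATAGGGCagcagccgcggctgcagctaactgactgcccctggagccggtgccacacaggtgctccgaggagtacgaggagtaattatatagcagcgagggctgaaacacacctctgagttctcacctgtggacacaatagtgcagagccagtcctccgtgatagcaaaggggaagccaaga
Srxn1, chr3:161064562-161064811, plus strand: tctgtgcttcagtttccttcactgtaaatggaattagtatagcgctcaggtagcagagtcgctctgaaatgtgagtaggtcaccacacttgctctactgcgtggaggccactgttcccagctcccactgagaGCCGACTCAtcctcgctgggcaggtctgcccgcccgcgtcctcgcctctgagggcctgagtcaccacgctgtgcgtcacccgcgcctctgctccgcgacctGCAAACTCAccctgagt
Gclm, chr2:213031885-213032134, plus strand: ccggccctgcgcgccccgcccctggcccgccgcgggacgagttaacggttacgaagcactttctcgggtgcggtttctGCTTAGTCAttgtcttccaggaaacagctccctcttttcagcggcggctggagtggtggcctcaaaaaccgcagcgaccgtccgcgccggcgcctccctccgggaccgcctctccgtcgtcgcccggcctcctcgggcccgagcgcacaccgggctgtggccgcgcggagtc
Slc7a11 held 1 looser match, from -183 to -175. Srxn1 held 3 of them, and the match from -5 to 3 crosses the start and is not shown in capitals. The match of Gclm lies from -172 to -164 on the minus strand. These are matches of letters in a window and say nothing of binding.

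Slc7a11 was over-expressed in exposed lungs at every day, and Srxn1 at D0 and D3, whereas the other 6 members tested were called at no day in the main fit. Hmox1 was called at D28 under some other treatments of the data, given below. The Slc7a11 calls at D90 and D180 were each lost under 4 other treatments of the data, given below with its values. Its call at D28 was lost with normal-exponential background correction. At D0, 2 of 8 members were called, both over-expressed, beside 4.28% of all genes called in either direction and 2.77% over-expressed. At D3 the count was again 2 of 8, beside 3.48% of all genes and 1.97% over-expressed. From D28 on only Slc7a11 was called, that is 1 of 8 members, beside 1.33% of all genes at D28 (0.864% over-expressed), 0.380% at D90 (0.246% over-expressed) and 0.325% at D180 (0.246% over-expressed). The median log2 change of the 8 members was 0.16, 0.08, 0.28, 0.20 and 0.10 at D0, D3, D28, D90 and D180, and the median of all genes lay between -0.01 and 0 at each day.

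**Figure D1:**
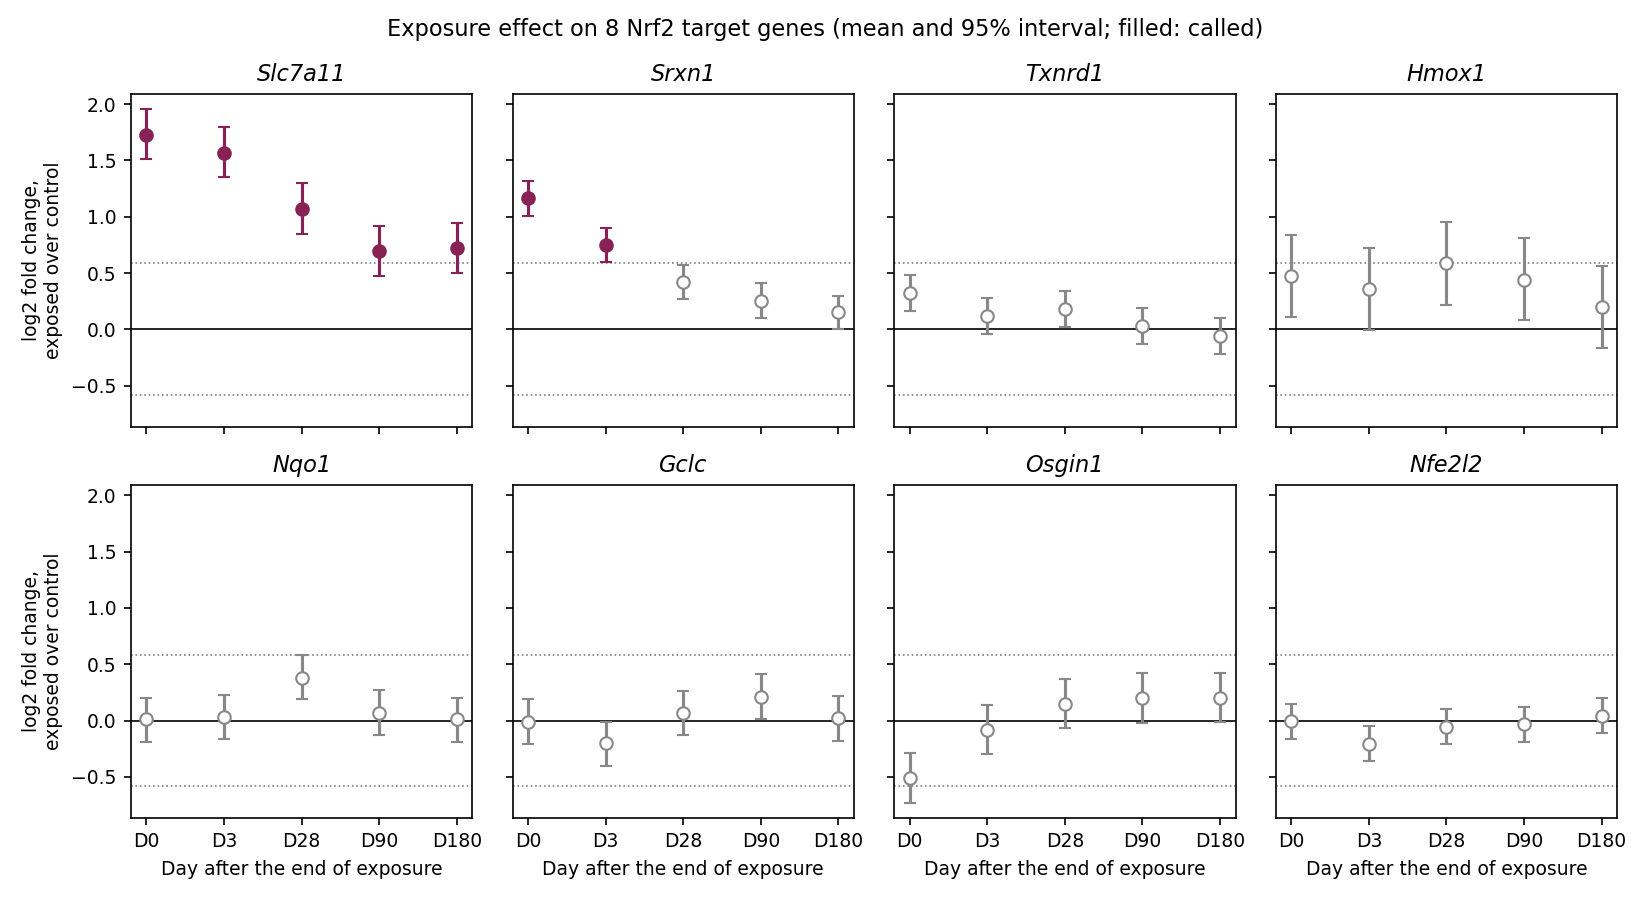
Log2 fold change of exposed over control rats (y axis) at each day after exposure (x axis) for the 8 members tested, with the 95% interval from limma, n = 5 and 5. Filled points were called and dotted lines mark 1.5-fold. Slc7a11 ends at 0.72 and Srxn1 at 0.15, while Nfe2l2 stays within 0.21 of 0 at every day.

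Slc7a11 encodes the light chain of the exchanger that brings cystine into the cell for glutathione synthesis. At D0 its level was 5.54, 5.55, 5.61, 5.66 and 5.71 in the control rats and 7.20, 7.30, 7.55, 7.26 and 7.42 in the exposed rats. Every exposed rat thus lay more than 1 log2 unit above every control rat. The change was 1.73 (SE 0.11, 3.33-fold, adjusted p = 7.67e-16).

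At D3 the control rats held Slc7a11 at 5.67, 5.86, 5.77, 5.63 and 5.91 and the exposed rats at 7.29, 7.20, 7.19, 7.32 and 7.69. At D28 the control rats were at 5.95, 5.77, 5.72, 5.65 and 5.34 and the exposed rats at 6.51, 6.67, 6.67, 7.07 and 6.89. The groups stayed fully apart on both days, with changes of 1.57 (2.97-fold, adjusted p = 2.53e-14) and 1.07 (2.11-fold, adjusted p = 4.86e-09).

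At D90 the control rats were at 5.42, 5.6, 5.54, 5.76 and 5.6 and the exposed rats at 6.16, 6.01, 6.13, 6.71 and 6.41. At D180 the control rats were at 5.66, 5.69, 5.80, 5.62 and 5.69 and the exposed rats at 6.26, 6.69, 6.4, 6.30 and 6.42. No rat labelled exposed fell into the range of the controls on either day. The log2 change was 0.70 at D90 (1.62-fold, adjusted p = 1.07e-04) and 0.72 at D180 (1.65-fold, adjusted p = 6.54e-05). Without exposed D180 replicate 2, whose label is in doubt, the D180 change was 0.65 (adjusted p = 8.78e-04).

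The exposure effect on Slc7a11 at D3 did not pass the test against that at D0 (difference -0.16, 95% interval -0.48 to 0.15, adjusted p = 0.836). Later it was smaller, with a difference from D0 of -0.66 at D28 (adjusted p = 0.00996), -1.04 at D90 (adjusted p = 8.95e-06) and -1.01 at D180 (adjusted p = 1.84e-05). The D28 difference had an adjusted p of 0.0533 when only the arrays of D0 and D28 were fitted. Control means of Slc7a11 ran from 5.59 to 5.77 over the 5 days, and exposed means went from 7.35 ± 0.14 at D0 to 7.34 ± 0.20, 6.76 ± 0.22, 6.28 ± 0.28 and 6.41 ± 0.17. By mean the exposed groups of D0 and D3 came first, then D28, D180 and D90, and the rats of D0 and D3 overlapped, as did those of D28 with D90 and D180 and those of D90 with D180. D90 and D180 were on other slides, so these levels against those of earlier days cannot be told apart from slide.

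The size of the Slc7a11 change depended on how background was treated. The probe is dim and was well above background on 48 of 50 arrays by most of its 10 spots, and the other two were control arrays of D0 and D3. With normal-exponential background correction the change was 0.99 at D0, 0.56 at D28, 0.35 at D90 and 0.36 at D180, with adjusted p of 0.00179 and 0.00183 at the last pair of days, so that the calls at D28, D90 and D180 were lost on the fold limit. The authors' normalized table gave 0.39 at D90 and 0.40 at D180, and scaling to the 75th percentile gave 0.57 at D180, all under the fold limit. At D90 the adjusted p was 0.0515 when only the arrays of that day were fitted. With the mean of both Slc7a11 probes the change was 0.13 at D90 and 0.45 at D180, and neither passed the test. The second probe was well above background on 0 of 50 arrays by most of its spots and gives no level.

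Srxn1 encodes sulfiredoxin, which repairs peroxiredoxins that peroxide has over-oxidised. At D0 the control rats were at 9.32, 9.38, 9.38, 9.51 and 9.38 and the exposed rats at 10.49, 10.50, 10.59, 10.62 and 10.59. At D3 the control rats were at 9.59, 9.64, 9.51, 9.68 and 9.37 and the exposed rats at 10.36, 10.29, 10.29, 10.24 and 10.36. Both days showed full separation, with changes of 1.17 (SE 0.08, 2.24-fold, adjusted p = 8.06e-16) and 0.75 (SE 0.08, 1.68-fold, adjusted p = 4.47e-10).

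At D28 the control rats held Srxn1 at 9.62, 9.80, 9.69, 9.53 and 9.50 and the exposed rats at 9.76, 9.98, 9.95, 10.37 and 10.21. Only the lowest exposed rat lay in the control range. The change of 0.42 passed the adjusted p (2.51e-04) but not the fold limit, at 1.34-fold. At D90 it was 0.25 (adjusted p = 0.107), where 4 of 5 exposed rats exceeded every control, and at D180 it was 0.15 (95% interval 0 to 0.30, adjusted p = 0.625), with 5 of 5.

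The effect on Srxn1 was already smaller at D3 than at D0, with a difference of -0.42 (adjusted p = 0.0371) that missed the fold limit. The difference from D0 was -0.74 at D28 (adjusted p = 5.34e-06), -0.91 at D90 (adjusted p = 3.76e-08) and -1.01 at D180 (adjusted p = 4.81e-09). Of the 8 members, 0 were called in this comparison at D3 by limma, against 2 at an unadjusted p under 0.05 and 0.678% of all genes called. At D28, D90 and D180 the same 3 members were called, namely Srxn1, Slc7a11 and Osgin1, beside 1.60%, 2.17% and 2.24% of all genes. With normal-exponential correction, and in the authors' table, only Srxn1 was called at D28. All 4 of these comparisons share the D0 rats.

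**Figure D2:**
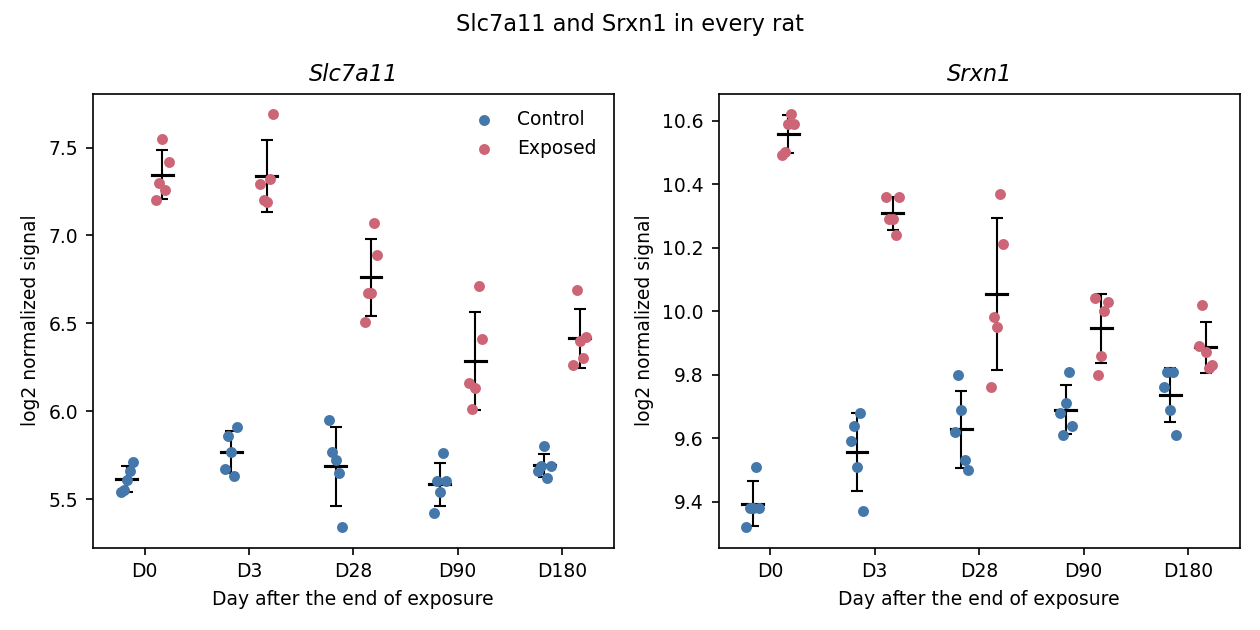
Log2 normalized signal (y axis) of Slc7a11 and Srxn1 in every control rat (blue) and exposed rat (red) at each day after exposure (x axis). Bars give the mean and SD of 5 rats. The exposed rats of Slc7a11 lie above all controls at each day, while for Srxn1 the exposed mean went from 10.56 at D0 to 9.89 at D180. D90 and D180 were on other slides.

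Txnrd1 encodes the cytosolic thioredoxin reductase, which feeds electrons from NADPH to thioredoxin. At D0 the control rats were at 8.88, 8.73, 8.83, 8.96 and 8.95 and the exposed rats at 9.23, 9.11, 9.02, 9.32 and 9.26. All 5 exposed rats lay above all controls, by a change of 0.32 (SE 0.08, 1.25-fold, adjusted p = 0.00355) that missed the fold limit. From D3 on the change lay between -0.06 and 0.18, with adjusted p of at least 0.226. Its effect at D180 differed from that at D0 by -0.38 (adjusted p = 0.0412), under the fold limit. A second, dimmer Txnrd1 probe gave 0.40 at D0 (SE 0.19, adjusted p = 0.182) and -0.25 at D28 (SE 0.19, adjusted p = 0.546), where the probe used gave 0.18, so the direction at D28 differed between probes.

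Hmox1 encodes haem oxygenase-1, which opens haem to biliverdin, carbon monoxide and iron. At D0 the control rats were at 11.56, 11.37, 11.26, 11.43 and 11.64 and the exposed rats at 12.01, 11.76, 11.95, 11.97 and 11.96. At D3 the control rats were at 11.53, 11.55, 11.80, 11.55 and 11.59 and the exposed rats at 11.86, 12.14, 11.84, 11.92 and 12.03. The groups did not overlap on either day. The change was 0.47 at D0 (SE 0.18, 1.39-fold, adjusted p = 0.0779) and 0.36 at D3 (SE 0.18, adjusted p = 0.244), neither of which passed the test.

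Hmox1 was more spread out at D28 and D90. At D28 the control rats were at 11.19, 11.33, 12.08, 11.22 and 11.35 and the exposed rats at 11.45, 11.91, 11.77, 12.85 and 12.14. At D90 the exposed rats were at 12.94, 11.65, 11.85, 11.71 and 11.71 and the controls between 11.30 and 11.86. The highest exposed rat of D90 and the highest control rat of D28 thus stood far above the rest of their groups, while the exposed rats of D28 were spread out. At D180 the exposed rats, from 11.47 to 11.63, again lay above all controls, from 11.25 to 11.46.

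The Hmox1 change was 0.59 at D28 (adjusted p = 0.0555), 0.44 at D90 (adjusted p = 0.446) and 0.20 at D180 (adjusted p = 1). Without exposed replicate 4 the D28 change was 0.38 (adjusted p = 0.262). It passed both limits without control replicate 3 (0.75, adjusted p = 0.00977), without exposed replicate 1 (0.73, adjusted p = 0.00986) or without exposed replicate 3 (0.65, adjusted p = 0.0456). Without exposed replicate 1 the D90 change was 0.20 in place of 0.44. Fitted on the arrays of D0 alone, the D0 change of 0.47 had an adjusted p of 0.0174 and stayed under the fold limit.

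Nqo1 encodes a quinone reductase and is often used as the readout of Nrf2. Exposed and control means at D0 were 9.73 ± 0.16 and 9.72 ± 0.19, a difference of 0.01 (95% interval -0.19 to 0.20, adjusted p = 0.990). At D28 the control rats were at 9.48, 9.43, 9.61, 9.35 and 9.63 and the exposed rats at 9.60, 9.95, 9.71, 10.10 and 10.07. Of the exposed rats, 4 of 5 lay above all controls, by a change of 0.38 (1.31-fold, adjusted p = 0.0144) that missed the fold limit. At D3, D90 and D180 the change lay between 0.01 and 0.07. The control mean of D28 (9.50 ± 0.12) was the lowest of the control groups, and the others ran from 9.72 to 9.81. The exposed mean of D28 was 9.89 ± 0.22, and the other exposed means ran from 9.73 to 9.85. The D28 control mean thus lay further below the other control means than the D28 exposed mean lay above the other exposed means. Of these groups, D90 and D180 were on other slides.

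In the exposed rats of D28, 5 members put the 5 rats in the same order. Slc7a11, Srxn1, Hmox1, Nqo1 and Txnrd1 each had replicate 1 lowest, then 3, 2, 5 and 4. Replicates 1 and 3 were on 1 slide, 2 and 5 on another and 4 on another again, so that rat and slide cannot be told apart in this order. Within the 3 slides that held both groups of D28, exposed minus control was 0.88 to 1.44 for Slc7a11, 0.18 to 0.68 for Srxn1 and 0.33 to 0.76 for Hmox1. In no other group did Slc7a11, Srxn1, Hmox1, Nqo1 and Txnrd1 all share an order of the rats. Over all 50 arrays, with slide and group means taken out, Slc7a11 and Srxn1 correlated at r = 0.62, Srxn1 and Hmox1 at 0.51 and Nqo1 and Srxn1 at 0.43. The lowest r among these 5 members were 0.16 (Slc7a11 and Txnrd1), 0.18 (Nqo1 and Txnrd1) and 0.22 (Nqo1 and Hmox1). These are descriptions over rats whose values share an array.

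**Figure D3:**
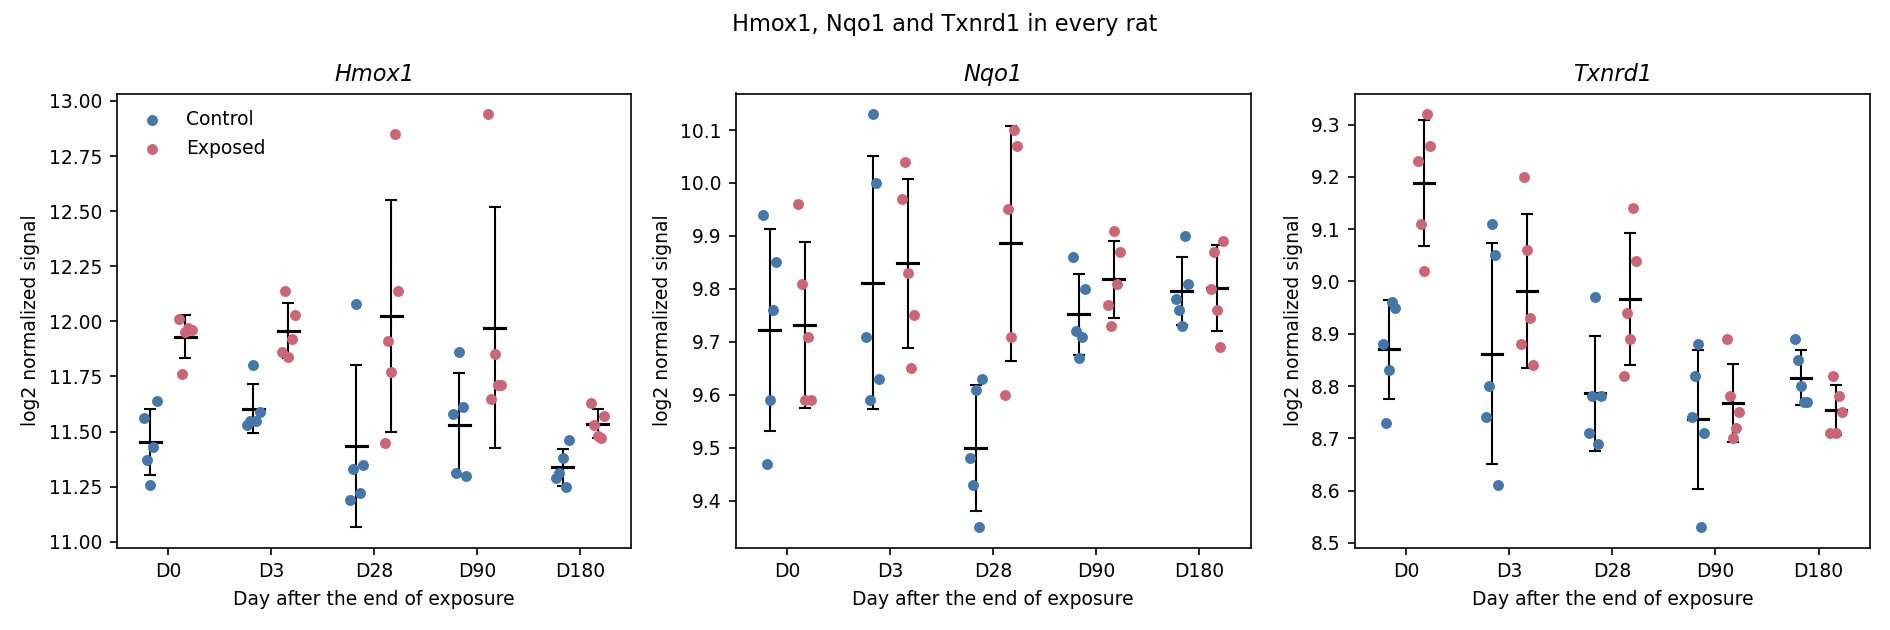
Log2 normalized signal (y axis) of Hmox1, Nqo1 and Txnrd1 in every control rat (blue) and exposed rat (red) at each day after exposure (x axis), with mean and SD of 5 rats. Single rats stand at 12.85 (D28) and 12.94 (D90) for Hmox1. The Nqo1 means lie furthest apart at D28 (9.50 in control and 9.89 in exposed rats), where the control mean is the lowest of all days.

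Gclc and Nfe2l2 passed the test at no day. Gclc encodes the catalytic subunit of glutamate-cysteine ligase, the first step of glutathione synthesis. Its change was -0.01 at D0 (95% interval -0.21 to 0.19) and then -0.20, 0.07, 0.21 and 0.02 on the later days in order, with adjusted p of at least 0.213. At D90 all 5 exposed rats, at 10.89 to 11.19, lay above the controls, at 10.74 to 10.85. Nfe2l2 had a change of 0 at D0 (95% interval -0.16 to 0.15), -0.21 at D3 (adjusted p = 0.0788) and between -0.06 and 0.04 later.

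Full separation with the exposed rats higher was found for 4 of 8 members at D0 (Hmox1, Srxn1, Txnrd1 and Slc7a11), beside 4.75% of all genes. The count was 3 at D3 (Hmox1, Srxn1 and Slc7a11; 3.36% of all genes), 1 at D28 (Slc7a11; 2.23%), 2 at D90 (Gclc and Slc7a11; 2.20%) and 3 at D180 (Hmox1, Srxn1 and Slc7a11; 2.77%).

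Osgin1, which encodes an oxidative stress-induced inhibitor of growth, went the other way at D0. The control rats were at 8.34, 8.56, 8.61, 8.46 and 8.59 and the exposed rats at 8.06, 7.91, 8.03, 7.75 and 8.26. Every exposed rat lay below every control. The change of -0.51 (SE 0.11, adjusted p = 6.23e-04) missed the fold limit, with controls 1.43-fold higher. At D3 it was -0.08 and at D28, D90 and D180 it was 0.15, 0.20 and 0.20 (adjusted p of at least 0.521).

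The effect on Osgin1 differed from that of D0 by 0.66 at D28 (adjusted p = 0.00741), 0.71 at D90 (adjusted p = 0.00245) and 0.72 at D180 (adjusted p = 0.00208). Without control D28 replicate 5, the lowest of its group, the D28 difference was 0.58 (adjusted p = 0.0201), just under the fold limit. Its level in control lungs fell by 0.65 from D0 to D3 (adjusted p = 5.06e-05), where all 5 rats of D3, at 7.74 to 8.04, lay below all of D0. From D3 to D28 it was lower by 0.39 (adjusted p = 0.0535), again with no overlap. The control means were 8.51 ± 0.11, 7.87 ± 0.14, 7.48 ± 0.19, 7.06 ± 0.08 and 7.24 ± 0.10 at D0, D3, D28, D90 and D180.

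Osgin1 was the only 1 of 8 members called between control D3 and control D0, beside 2.32% of all genes. Between control D28 and control D3, limma called 0 members (4 at an unadjusted p under 0.05, namely Nqo1, Gclc, Osgin1 and Nfe2l2, all lower at D28), beside 0.638% of all genes. Between control D180 and control D90 it called 0 (0 at an unadjusted p under 0.05), beside 0.0198%. Gclc went from a control mean of 11.43 ± 0.18 at D0 to 11.13 ± 0.16 at D28, and Nfe2l2 from 13.29 ± 0.12 to 13.10 ± 0.16.

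**Figure D4:**
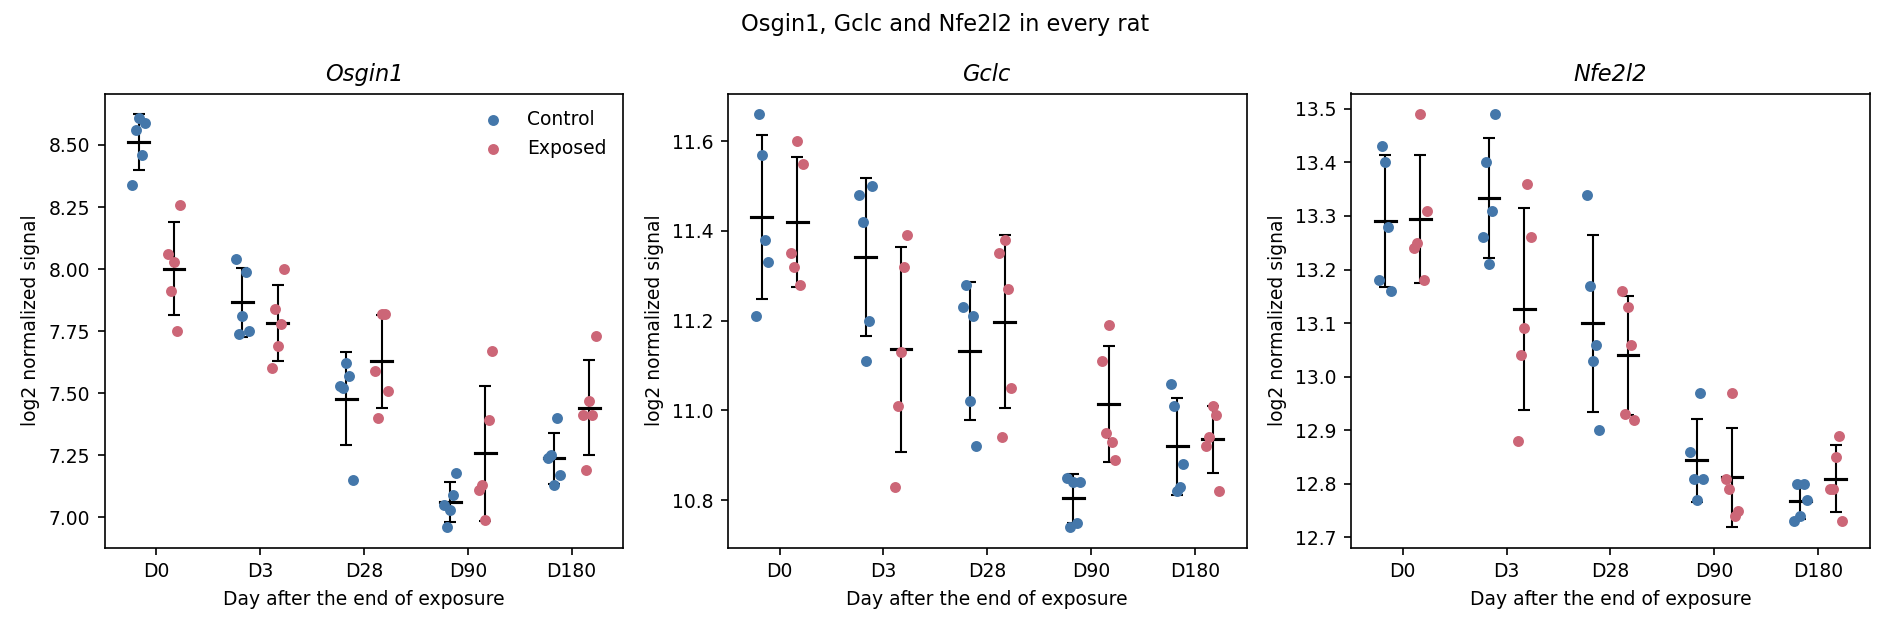
Log2 normalized signal (y axis) of Osgin1, Gclc and Nfe2l2 in every control rat (blue) and exposed rat (red) at each day after exposure (x axis), with mean and SD of 5 rats. Control Osgin1 went from 8.51 at D0 to 7.48 at D28, and D90 and D180 were on other slides.

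The genes whose pattern was most like each member were sought by Pearson's r over the 50 arrays, with slide means taken out and group differences kept, among 19409 genes with a symbol. Only exposed D3 replicate 1 links the slides of D0, D3 and D28 with those of D90 and D180. The difference taken out between these slide sets therefore rests on 1 rat, and so do differences between the early and late groups in r. Since exposed and control rats stand apart, r carries that difference. Slc7a11 was closest to Hp (haptoglobin, r = 0.98), C3 (complement component, 0.96) and Cfi (complement factor I, 0.96). Srxn1 was closest to C4bpa (a complement inhibitor, 0.95), Hp (0.94) and Slc26a4 (pendrin, an anion exchanger, 0.94). Txnrd1 was closest to Cd302, Sod2 and Ly6al (0.76, 0.74 and 0.73).

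Gclc and Osgin1 were closest to Per2, a core gene of the circadian clock (0.87 and 0.83). Both had Cpne7 among their 3 (0.83 and 0.82). Osgin1 also had Tspan4 among its 3 (0.79). Without taking out slide means, the r with Osgin1 was 0.48 for Tspan4, 0.81 for Per2 and 0.79 for Cpne7. Wee1, a cell cycle kinase gene under clock control, was second for Gclc (0.83). Per2 itself was lower in control rats of D3 than of D0 by a log2 change of -0.92 (adjusted p = 0.00285) and lower still at D28 by -2.04 (adjusted p = 4.68e-09). Between exposed and control rats the log2 change of Per2 was -0.65, -1.51, 0.81, 1.23 and 0.93 at D0, D3, D28, D90 and D180 (adjusted p of 0.0320 or less), where that of Osgin1 was -0.51, -0.08, 0.15, 0.20 and 0.20. That of Gclc was -0.01, -0.20, 0.07, 0.21 and 0.02 on the same days. The part of clock phase in the Osgin1 and Gclc values was not tested. Nfe2l2 was closest to Map2k3, Aldoc and Ivns1abp (0.80, 0.79 and 0.79), Nqo1 to Bhlhe40, Hsd17b1 and Ube2a (0.75, 0.70 and 0.70), and Hmox1 to RGD1561520, RGD1563378 and Taldo1 (0.74, 0.73 and 0.73). Without taking out slide means the r of these genes was 0.34, 0.44 and 0.69 for Nqo1 and 0.36, 0.28 and 0.08 for Hmox1.

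Other genes were described through 8 lists of 77 genes, of which 76 were tested. The lists take in genes around the pathway and not only targets of Nrf2. At D0, 6 of 76 were over-expressed and 0 under-expressed (7.90% called, beside 4.28% of all genes), with a median change of 0.05. The 6 were Akr1b8, Hp, Hpx, Sod2, Phgdh and Slc7a5, the last pair from the list of the amino acid response. This share is thus not one of Nrf2 targets alone, and the regulator, glutathione, thioredoxin and NADPH lists had 0 called. At D3, 4 were over-expressed and 2 under-expressed (7.90%, beside 3.48%). At D28 3 were over-expressed (3.95%, beside 1.33% of all genes) and at D90 1 (1.32%, beside 0.380%). At D180 limma called 0, where Hp (0.51) and Idh1 (0.29) still had an adjusted p under 0.05.

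Of the 9 regulators of Nrf2, among them Keap1, Cul3, Bach1 and the small Maf genes, 0 were called at any day by limma. Of these, 1 had an adjusted p under 0.05 with a smaller change at D0 (Mafg, -0.26) and 1 at D3 (Cul3, -0.24), and 0 from D28 on. The median change of the list was -0.15 at D0 and -0.11 at D3. The glutathione list had 0 of 9 called at any day, with 5 at an adjusted p under 0.05 at D0, 3 at D3 and 2 at D28. Ggt1, which splits extracellular glutathione, had the largest change of this list, 0.52 at D0 (adjusted p = 1.61e-06) and 0.54 at D3, while Gpx3, the plasma glutathione peroxidase, was at -0.48 and -0.39. Slc3a2, the heavy chain that partners Slc7a11, had its lowest adjusted p at D28 (0.0157), with a change of -0.27.

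In the thioredoxin and peroxiredoxin list 0 of 10 were called. At D0 Prdx5 stood at 0.37, Prdx1 at 0.31 and Txn1 at 0.22, and Prdx6 at -0.32, each with an adjusted p under 0.05. The NADPH list had 0 of 5 called, but its 5 changes were all above 0 at D0, from 0.20 to 0.49, with a median of 0.33. Idh1, which makes NADPH in the cytosol, was at 0.49 (adjusted p = 1.94e-06) at D0 and still at 0.29 (adjusted p = 0.0358) at D180.

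The conjugation and detoxification list had 1 of 20 called at D0 and 3 at D3, beside 4.28% and 3.48% of all genes. The D0 count thus lies near the share of all genes. Akr1b8, an aldo-keto reductase, rose by 0.71 at D0 (adjusted p = 3.54e-09) and 0.64 at D3 (adjusted p = 8.09e-08). Gsta4, a glutathione transferase, and Aldh3a1, an aldehyde dehydrogenase, fell by 0.62 and 0.64 at D3 (adjusted p = 1.43e-04 and 1.24e-06). The median of the list was -0.03 at D0 and -0.12 at D3.

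Of all genes, 4.28% were called at D0, 3.48% at D3 and 1.33% at D28. In the haem and iron list, 2 of 9 genes were called at D0, D3 and D28, and both bind haem or haemoglobin in plasma. Hp rose by 1.58, 1.30 and 0.95, and Hpx (haemopexin) by 0.96, 1.58 and 0.72. Sod2, the mitochondrial superoxide dismutase, was the only 1 of 4 called in the superoxide and peroxide list, at 1.51 at D0 (adjusted p = 8.17e-15) and 0.68 at D3 (adjusted p = 8.76e-06). It lay at 0.15 at D28, where Slc7a11 was still at 1.07.

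The list of the amino acid response, which like Nrf2 can drive Slc7a11, had 2 of 10 over-expressed at D0, beside 2.77% of all genes. These were Slc7a5, an amino acid carrier, at 1.2 (adjusted p = 4.02e-06), and Phgdh, the first enzyme of serine synthesis, at 0.89 (adjusted p = 5.11e-10). Slc7a5 was called again at D28 (0.65) and D90 (0.80), but was well above background on only 40 of 50 arrays. The median of the list was -0.08 at D0 and 0.25 at D3, where 0 of 10 were called.

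**Figure D5:**
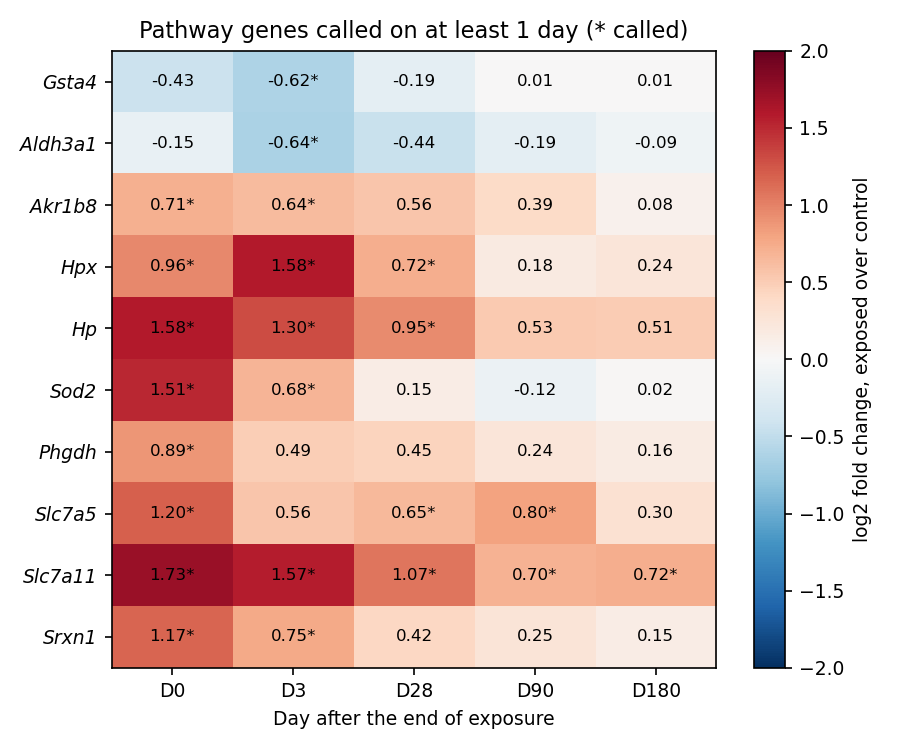
Log2 fold change of exposed over control rats (colour and printed value) at each day (columns), where * marks a call. Rows are the 8 genes of these lists called on at least 1 day, not all of them Nrf2 targets, and Slc7a11 and Srxn1. Slc7a11 is the row with a call in every column, and Gsta4 and Aldh3a1 are the rows with a call below 0.

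Some markers of inflammatory cells also differed between exposed and control rats. In whole lung a change in the number of cells of a type cannot be told apart from a change in RNA per cell. Of all genes, 2.77% were over-expressed at D0, 1.97% at D3, 0.864% at D28 and 0.246% at both D90 and D180. Of the neutrophil markers, 3 of 8 were over-expressed at D0, 2 at D3 and 1 at D28, led by S100a9 (1.69) and Fcnb (1.56) at D0. The median change of the 8 was 0.31 at D0, with a lowest of -0.46. S100a9 was still at 0.88 at D28 (adjusted p = 5.78e-04), where the median was -0.03 and only 4 of 8 changes were above 0. The mean log2 level over the list ran from 9.15 to 9.84 in control and from 9.68 to 10.48 in exposed rats at D0, and from 9.30 to 9.92 and from 9.49 to 9.76 at D28. The groups overlapped in this level at both days, at D0 through 1 control rat (replicate 4, at 9.84). Ngp was well above background on 28 of 50 arrays.

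Of the Spp1 macrophage markers, 2 of 5 were over-expressed at D0 and D3 and 1 of 5 later. Spp1, which encodes osteopontin, was at 2.40 at D0 and still at 2.11 at D180 (adjusted p = 2.31e-06), and Fabp5, a fatty acid carrier, at 1.01 at D0. The mean level of this list ran from 13.21 to 13.61 in control and from 14.12 to 14.36 in exposed rats at D0, and from 13.30 to 13.65 and from 13.85 to 14.09 at D180, without overlap. At D0 the median change of the list was 0.41, with a lowest of -0.26. At D180 the median was 0.09 (from 0.02 to 2.11) and Spp1 was the only 1 with an adjusted p under 0.05, so the D180 gap rests mainly on Spp1. Of the general macrophage markers, limma called 0 of 10 at D0 (3 at an adjusted p under 0.05) and 1 at D3 (Siglec1, 0.94), and the D0 level ran from 10.20 to 10.25 in control and from 10.13 to 10.74 in exposed rats. Marco was well above background on 5 of 50 arrays. Of the lymphocyte markers 2 of 7 were over-expressed at D0 (Cd3g, 0.67, and Cd79b, 0.68) and 0 later. Epithelial and red blood cell markers moved too. The mean level of 8 alveolar type 2 markers was higher in exposed rats without overlap at D0 (16.31 to 16.41 in control and 16.56 to 16.66 in exposed rats), D3 and D28, with 4, 3 and 1 of 8 genes at an adjusted p under 0.05 and 0 called. That of 5 alveolar type 1 markers was lower without overlap at D0 (16.04 to 16.31 and 15.72 to 15.91) and D3, with 3 of 5 genes at an adjusted p under 0.05 on both days and 1 called at D3 (Hopx, -0.65). Red blood cell markers were lower without overlap at D28 (13.84 to 13.98 and 13.45 to 13.71) and D90, with 3 and 1 of 7 genes at an adjusted p under 0.05. The part of these cells in the Slc7a11 and Srxn1 changes was not tested.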

How the data were processed

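Lung RNA (100 ng per rat) was labelled with Cy3 and hybridised to one-colour Agilent rat arrays by the authors. The deposited array files hold spot intensity per the file headers, read by Agilent Feature Extraction 11.0.1.1. In the processed signal, background and spatial trend are already subtracted. A table of quantile-normalized intensity that the authors deposited served as an alternative. Probe positions are those of the headers (rn4).

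Control spots and flagged outlier spots were dropped, and log2 values were averaged per probe. Arrays were quantile normalized. Probes had to exceed the negative controls' 95th percentile on 5 or more arrays (29578 of 30367 did). The probe with the highest mean stood for a gene, which left 25235 genes. limma 3.58.1 in R 4.3.3 fitted 10 group means, and 12 comparisons were tested, with two-sided p-values. The fit was tested on simulated data. In 22 files, 84 altered gene names were taken from other files. The study's methods corrected for batch terms not named in the sources used here, so slide was tried as a block. The labels do not say that replicate numbers pair rats. Array number limits the precision.

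Members and lists were chosen with earlier results of these data known. All 9 members were named, with the pathway genes called on a day, the markers that changed most and the 3 genes most correlated with each member. RefSeq accessions gave the array names of Adgre1 and Cfap43, and Pgd, Cd79a, Hba-a2 and Cyp2b1 had no match. Marker lists for club and ciliated cells and cardiac muscle were also computed. Of these, Cyp2f4 (club cell) was lower in exposed rats at D0, and no other gene was called between exposed and control rats. The mean level of cardiac markers was lower in exposed rats without overlap at D28 (10.78 to 11.20 and 10.47 to 10.75), with 0 of 6 genes at an adjusted p under 0.05.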

Additional observations from a re-analysis of the deposited data

Results flagged for a closer look

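Among 80 sets of 5 rats (8 members, 10 groups), 7 had 1 rat further from its nearest neighbour than Dixon's limit of 0.71 of the range, and chance flags about 1 set in 20. Of these, 4 concerned Hmox1. The highest rats were at 12.94 in exposed D90 (replicate 1, next rat 11.85), at 12.08 in control D28 (replicate 3, next 11.35) and at 11.80 in control D3 (replicate 3, next 11.59), and the lowest was at 11.76 in exposed D0 (replicate 2, next 11.95). Slc7a11 had a high rat at 7.69 in exposed D3 (replicate 5, next 7.32), Osgin1 a low rat at 7.15 in control D28 (replicate 5, next 7.52) and Nfe2l2 a high rat at 12.97 in exposed D90 (replicate 3, next 12.81).

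The exposure effect of 3 members differed from that at D0 by the interaction test. For Srxn1 the difference was -0.74 at D28, -0.91 at D90 and -1.01 at D180. For Slc7a11 it was -0.66, -1.04 and -1.01. For Osgin1 it was 0.66, 0.71 and 0.72.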

How the results depend on the processing

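Counts of called members out of 8 changed as follows. With adjusted p and no fold limit, 4 were called at D0, 3 at D28 and 1 in the D3 difference from D0. At D28 2 were called with 75th percentile scaling, the authors' table and the filter at 25 arrays, where Hmox1 joined Slc7a11, with normal-exponential correction the 1 called was Hmox1 (0.59, adjusted p = 0.0427) in place of Slc7a11, and leaving out 1 rat gave 1 to 2. At D90 0 were called with normal-exponential correction, the authors' table, the mean of a gene's probes and only the arrays of that day, where Slc7a11 had a log2 change of 0.70 and an adjusted p of 0.0515. At D180 0 were called with 75th percentile scaling (Slc7a11 at 0.57), normal-exponential correction, the authors' table and the mean of probes. By construction the last averages in a Slc7a11 probe that lies at background. Normal-exponential correction and the authors' table called 1 in the D28 difference from D0 (Srxn1) and 0 between control D3 and D0, where Osgin1 missed the fold limit.

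Changes near 0 turned sign. Nqo1 was at -0.02 at D0 and at -0.06 and -0.07 at D180 with normal-exponential correction and the authors' table, at -0.01 at D180 with 75th percentile scaling and at -0.03 at D3 with slide as a block. Gclc was at 0.01 and Nfe2l2 at 0.02 at D0 with 75th percentile scaling, and Gclc at 0 at D180 with slide as a block. Txnrd1 was at -0.04 at D28 with the mean of its probes. Leaving out 1 rat at a time gave -0.06 to 0.06 for Nqo1, -0.06 to 0.05 for Gclc and -0.05 to 0.04 for Nfe2l2 at D0, -0.02 to 0.11 for Nqo1 at D3, -0.02 to 0.06 for Txnrd1 at D90, and -0.01 to 0.04 for Nqo1 and -0.01 to 0.05 for Gclc at D180.

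With the replicate block, 2, 2, 1, 1 and 1 members were called from D0 to D180, as without it. Same-numbered rats correlated over 0.1 in 8 of 25 pairs (r from -0.34 to 0.46). That gives no clear sign of pairing, but such correlations cannot exclude a pairing in the design. Other alternatives left the counts within 1.5 times. The dim Slc7a11 probe and the Gclm probe at background limit what can be said of those genes.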
